A study of Mus musculus with 16 samples.

Results

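The small leucine-rich proteoglycans are secreted matrix proteins, and 8 of their genes were followed here by symbol: Bgn, Dcn, Aspn, Lum, Fmod, Prelp, Omd and Ogn. All 8 were found among the 19787 gene names shared by the 13 RNA libraries of the study, in 12 libraries by RefSeq symbol and in the MEF Oct4 library by Ensembl identifier. Mouse embryonic fibroblasts (MEF, passage 2) and embryonic stem cells (ESC, passage 5) carried the OG2 transgene on a mixed 129SVJ, C57B6 and CBA background. Other MEF were being reprogrammed with KSM, which stands for Klf4, Sox2 and c-Myc, together with Oct4, c-JunDN, Jdp2 or DR, and gave RNA on day 3. Without KSM, MEF overexpressed c-Jun, c-JunDN, Jdp2, Oct4 or DR, or were left as wild type (WT). The ESC libraries were a c-Jun TetOn line given doxycycline for 36 h, the same line without doxycycline, and WT ESC. DR served as the control in KSM and in MEF, and the labels spell out neither DR nor DN. The study asked how c-Jun, c-JunDN and Jdp2 act on cell fate and gene expression. Each group was 1 library, so no test across replicates could be made, and intervals cover counting error only. The labels do not say how many animals, cultures or clones stand behind a library.

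These proteoglycans share a core of leucine-rich repeats flanked by cysteines and fall into classes by sequence. Biglycan (Bgn), decorin (Dcn) and asporin (Aspn) form class I. Biglycan and decorin carry chondroitin or dermatan sulfate chains, and asporin carries none. Lumican (Lum), fibromodulin (Fmod), PRELP (Prelp) and osteomodulin (Omd) belong to class II, in which keratan sulfate chains are common, and osteoglycin (Ogn) to class III. Most of them bind fibrillar collagen and limit or order the growth of fibrils, and decorin, biglycan, asporin and fibromodulin can bind TGF-beta. Fibroblasts of tendon, skin and other connective tissue are their usual source, and pluripotent cells lay down little collagen matrix.

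The libraries held 1896522 to 3440958 expected counts, except WT ESC with 12173140 and WT MEF with 21415028. Levels are in CPM, counts scaled to a common library size by the TMM method, and different genes are compared only in TPM, which allows for transcript length. Each overexpressed factor was high in its own library. Jun had 12854.79 CPM in MEF c-Jun and 4192.06 in MEF c-JunDN, against 94.16 in MEF DR, and Jdp2 had 7725.48 CPM in MEF Jdp2 against 81.81 in MEF DR. Pou5f1, which encodes Oct4, had 10353.12 CPM in MEF Oct4 against 2.57 in MEF DR. In KSM cells the levels were lower, with 401.48 CPM of Jdp2 in KSM Jdp2 against 3.20 in KSM DR, 376.86 CPM of Jun in KSM c-JunDN against 72.78, and 1854.11 CPM of Pou5f1 in KSM Oct4 against 4.40. All 8 fibroblast markers (Thy1, Pdgfra, Pdgfrb, Twist1, Twist2, Prrx1, Col1a1 and Col3a1) reached 5 CPM in every MEF library, and all 8 ESC markers did so in every ESC library.

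Several of the genes lie side by side in the genome. In the RefSeq annotation of build GRCm38.p6, Dcn and Lum are neighbours on chromosome 10, followed by Kera, another member of the family. Prelp and Fmod are neighbours on chromosome 1, next to the family member Optc. Aspn, Omd and Ogn follow each other on chromosome 13 after Ecm2, and all of these 3 overlap the span of Cenpp, a centromere protein gene. Bgn stands alone on chromosome X.

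Promoter windows of 250 bases before the annotated start were found in the RefSeq table (GRCm38.p6) for 6 of the 8 genes. The windows of Fmod and Prelp are shown because these neighbours had the highest ratios of all 8 genes in MEF with Jdp2, and that of Aspn because it had the lowest ratio in MEF with Oct4. Fmod lies on the plus strand (chr1:134037004-134037253), Prelp on the minus strand (chr1:133921402-133921651) and Aspn on the plus strand (chr13:49544193-49544442). Each is written 5′ to 3′ along its gene and ends at the base before the start, and capitals mark TATAAA on either strand.
Fmod: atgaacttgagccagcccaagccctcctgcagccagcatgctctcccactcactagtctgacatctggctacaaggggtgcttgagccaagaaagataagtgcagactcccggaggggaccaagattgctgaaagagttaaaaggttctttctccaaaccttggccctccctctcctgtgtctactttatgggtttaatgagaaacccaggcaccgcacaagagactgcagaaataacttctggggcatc
Prelp: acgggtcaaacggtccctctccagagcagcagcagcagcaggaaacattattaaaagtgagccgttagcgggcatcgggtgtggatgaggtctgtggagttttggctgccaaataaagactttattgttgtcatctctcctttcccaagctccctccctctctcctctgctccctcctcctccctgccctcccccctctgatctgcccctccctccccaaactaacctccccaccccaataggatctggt
Aspn: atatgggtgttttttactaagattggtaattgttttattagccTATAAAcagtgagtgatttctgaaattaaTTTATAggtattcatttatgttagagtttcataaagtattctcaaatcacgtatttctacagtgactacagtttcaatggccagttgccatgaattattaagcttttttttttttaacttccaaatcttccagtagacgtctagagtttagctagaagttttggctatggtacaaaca
The AP-1 element TGANTCA, searched on both strands, was in 0 of the 6 windows and in 6.75% of 32851 promoter windows of the same length. The cyclic AMP response element TGACGTCA was in 0 of 6 and in 1.55% of all windows. TATAAA was in the windows of Aspn and Ogn and in 12.4% of all windows. In the Aspn window the matches begin at positions -207 and -178 relative to the start. In the Ogn window they begin at -229 and -227 and overlap each other. Such matches describe letters in a window and say nothing of binding.

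Across cell types, 7 of the 8 genes were highest in MEF libraries and low in ESC, and Omd ran the other way. Summed over the 8 genes, transcripts made up 110.8 to 334.0 TPM in the 4 KSM libraries, 1458.4 to 12837.7 TPM in the 6 MEF libraries and 33.7 to 107.0 TPM in the 3 ESC libraries. WT MEF held 6371.0 TPM of them against 107.0 TPM in WT ESC. Since these are bulk samples, fewer cells of a type and less RNA per cell cannot be told apart. The summed fibroblast markers followed the same order, with 1043.0 to 1358.0 CPM in KSM, 8453.5 to 36697.7 CPM in MEF and 18.7 to 915.4 CPM in ESC, and their part in the result was not tested.

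**Figure D1:**
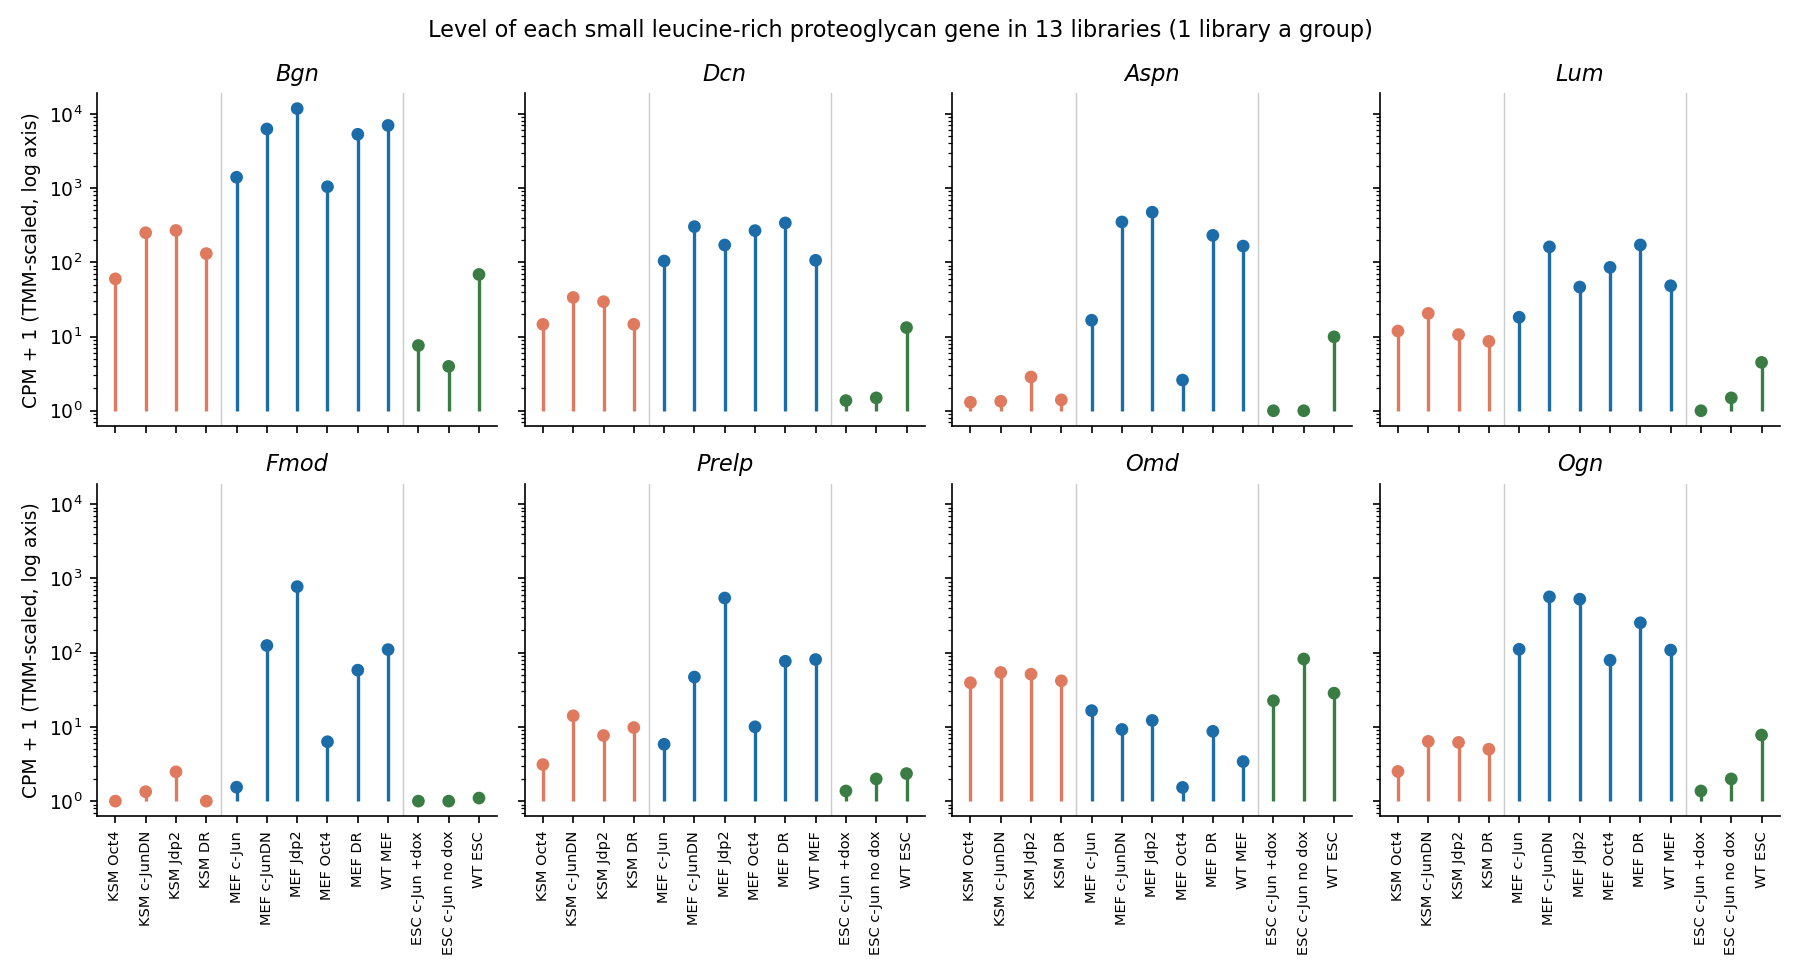
TMM-scaled CPM plus 1 of each gene on a log axis in 4 KSM libraries (orange), 6 MEF libraries (blue) and 3 ESC libraries (green), 1 point a library with no replicates. The highest point is a MEF library for 7 genes, and Omd stands higher in every KSM and ESC library than in every MEF library.

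Biglycan was the most abundant of the 8 transcripts in every MEF and KSM library. In MEF it was 70.5% to 92.0% of their summed TPM, with 10765.7 TPM in MEF Jdp2, 4618.7 TPM in MEF DR and 5864.2 TPM in WT MEF. Behind it the order changed from library to library. Fibromodulin came second in MEF Jdp2 with 592.0 TPM, osteoglycin second in MEF c-JunDN with 468.5 TPM, asporin second in WT MEF with 140.4 TPM, and decorin second in MEF c-Jun with 112.6 TPM, in MEF Oct4 with 306.6 TPM and in MEF DR with 373.1 TPM. The TPM of MEF Oct4 was computed over Ensembl genes and the others over RefSeq genes. In MEF DR, osteoglycin (206.1 TPM from 489 counts) and asporin (203.1 TPM from 446 counts) were close neighbours in the order. Decorin was 19.1% of the sum in MEF Oct4 and 1.5% in MEF Jdp2, the extremes among MEF libraries.

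**Figure D2:**
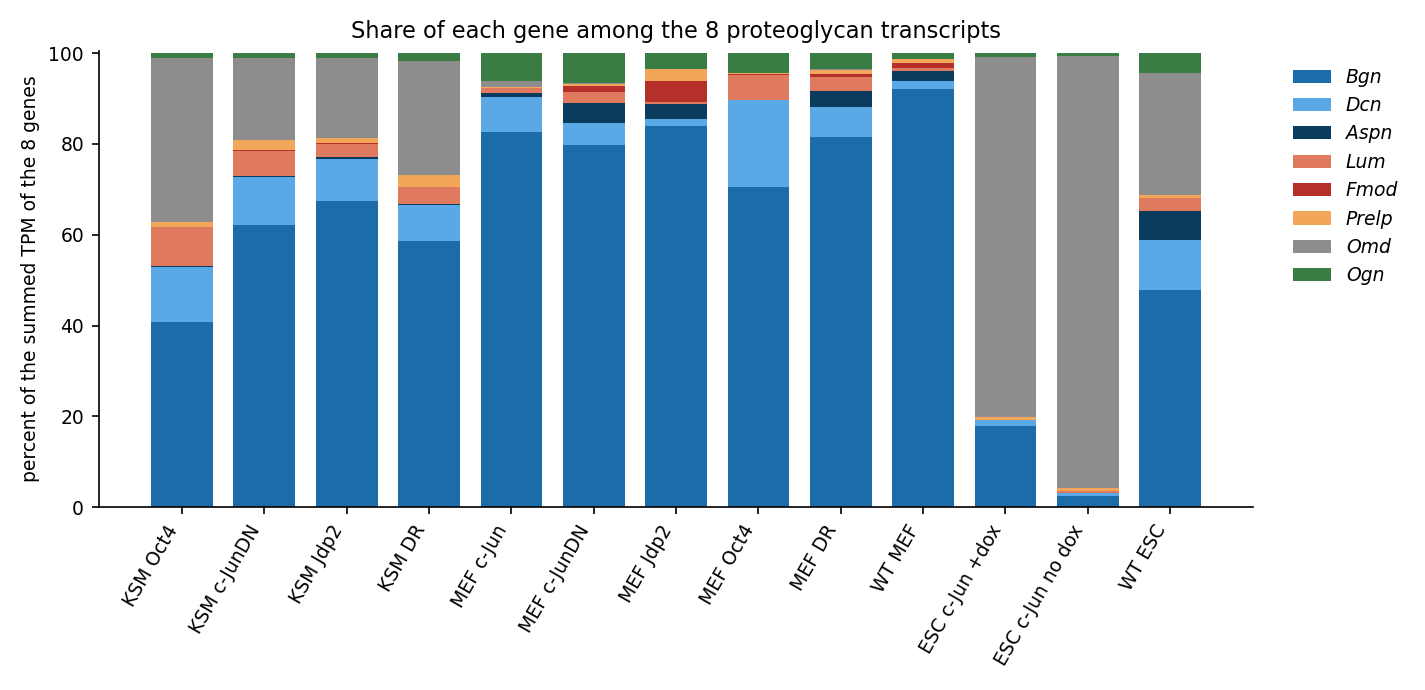
Percent of the summed TPM of the 8 genes held by each gene, 1 bar a library. Bgn fills 70.5% to 92.0% of the bar in the 6 MEF libraries, and Omd fills 79.3% and 95.1% in the c-Jun TetOn ESC line with and without doxycycline.

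Omd carries a limit that bears on all its values. Its expected count was fractional in 12 of the 12 RefSeq-based libraries, which RSEM gives where reads fit more than 1 annotated transcript, and that of Bgn was fractional in 11 of all 13 libraries. Omd had 1 count in the Ensembl-based MEF Oct4 library, against 15 in MEF DR. The overlapping Cenpp had 6.57 CPM in ESC with doxycycline, 24.15 without it and 16.26 in WT ESC, and 1.03 to 3.72 CPM in the MEF libraries. In the KSM libraries it had 4.81 to 9.41 CPM, and its expected count was whole in every library. Whether reads of Cenpp were counted as Omd was not tested, and Omd is uncertain throughout. Aspn and Ogn overlap Cenpp as well, but their counts were fractional in 2 libraries each. In ESC without doxycycline, where Cenpp had 49 counts, Aspn had 0 and Ogn 2. The library kit's strand setting is not given in the sources used here.

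Between the unmanipulated cell types, WT MEF were higher than WT ESC for 7 genes and lower for Omd, where 53.9% of the 11626 genes measured differed by 2-fold, 24.0% higher and 29.9% lower. Measured genes are those that reached 5 CPM in either library of a pair, and a call means 2-fold or more on log2(CPM + 1). Biglycan had 6984.5 CPM in WT MEF against 67.6 in WT ESC, a 103-fold ratio (95% interval 96 to 112). Fibromodulin had 109.1 CPM in WT MEF and 1 count in WT ESC. Dcn had 105.3 CPM in WT MEF against 12.2 in WT ESC, Lum 47.3 against 3.5 and Prelp 79.9 against 1.4. Aspn had 164.4 CPM in WT MEF against 8.9 in WT ESC, and Ogn 107.4 against 6.8. Omd was 11.4-fold lower in WT MEF (8.09 to 16.6), with 2.41 against 27.49 CPM.

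MEF DR and WT MEF differed in some of the genes, so ratios to WT MEF are given beside those to DR. MEF DR were called higher than WT MEF for 4 of 8 genes and lower for 0, where 20.2% of 10896 genes were called, 9.49% higher. Decorin had 338.1 CPM in MEF DR against 105.3 in WT MEF, and lumican 170.3 against 47.3, ratios of 3.21 (2.93 to 3.52) and 3.6 (3.15 to 4.1). Osteoglycin was 2.34-fold higher, and Omd, with 15 counts in MEF DR, 3.21-fold higher. Bgn, Aspn, Fmod and Prelp lay within 2-fold, Fmod closest to the limit with 57.1 CPM in MEF DR against 109.1 in WT MEF. WT MEF was also sequenced more deeply. Scaled by total counts, all genes had a median of 0.28 in place of -0.11, and 82.8% of calls were higher in place of 47.0%, while the same count of 4 of the 8 genes was called higher.

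In MEF with c-Jun, 7 of the 8 genes were lower than in MEF DR and 0 were higher. Of 11085 measured genes, 18.0% were called, 8.33% higher and 9.66% lower. The median log2 change of the 8 genes was -2.58, against 0.02 over all measured genes. MEF with Oct4 also had 7 of 8 lower and 0 higher, where 21.8% of 11254 genes were called and 10.2% were lower, with a median of -2.43 against 0.01. MEF with Jdp2 had 5 higher and 1 lower, where 12.4% of 11027 genes were called, 5.98% higher and 6.40% lower, with a median of 1.05 against 0.01. MEF with c-JunDN had 2 higher and 0 lower, where 6.10% of 10977 genes were called, 3.28% higher and 2.82% lower, with a median of 0.16 against -0.00. These 4 comparisons share the 1 MEF DR library, and their values are given side by side.

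**Figure D3:**
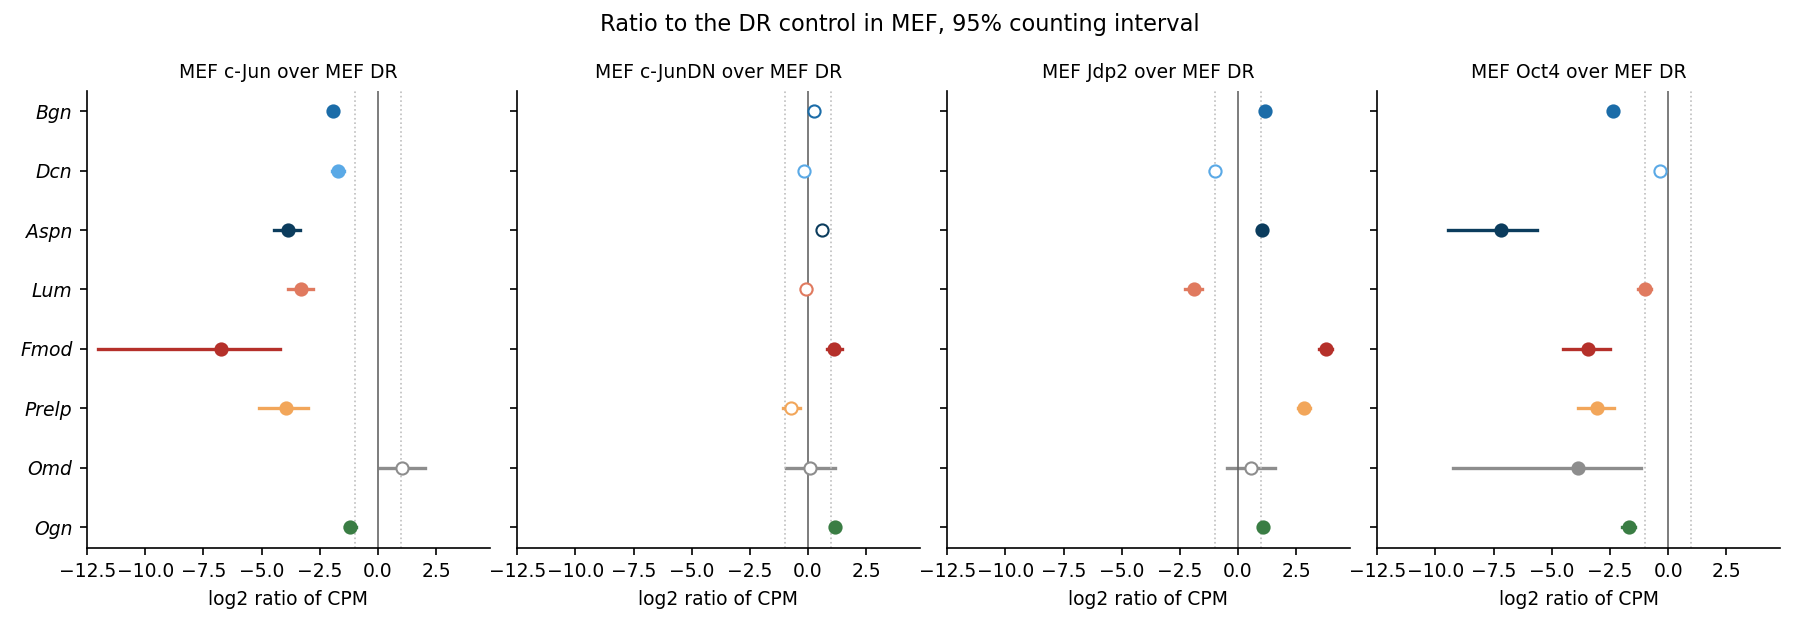
Ratio of CPM to MEF DR on a log2 axis for each gene in 4 MEF libraries, 1 library a group, with lines for the 95% counting interval, dotted lines at 2-fold, and filled points for genes called on log2(CPM + 1). With c-Jun and with Oct4, 7 points are filled left of the dotted line, and with Jdp2 those of Fmod, Prelp, Bgn, Ogn and Aspn are filled on the right.

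Of the class I genes, biglycan had 1397.3 CPM with c-Jun, 6252.5 with c-JunDN, 11765.6 with Jdp2 and 1041.5 with Oct4, against 5303.4 in MEF DR and 6984.5 in WT MEF. It was 3.8-fold lower with c-Jun (3.64 to 3.96), 5.09-fold lower with Oct4 (4.85 to 5.35) and 2.22-fold higher with Jdp2 (2.17 to 2.27) than in DR. The MEF Oct4 library was quantified on Ensembl genes and the others on RefSeq genes, which the interval does not cover. In TPM the gap was smaller, and biglycan had 1133.6 TPM with Oct4 against 4618.7 in MEF DR. Against WT MEF it was 5-fold lower with c-Jun and 6.71-fold lower with Oct4, and 1.12-fold lower with c-JunDN. With Jdp2 it was 1.68-fold higher than WT MEF, within the limit, which total counts moved past it (log2 change 1.19). In MEF Jdp2, 22025 counts fell on this gene.

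Decorin, which wraps collagen fibrils and binds TGF-beta, had 103.1 CPM with c-Jun, 301.2 with c-JunDN, 169.9 with Jdp2 and 266.2 with Oct4, against 338.1 in MEF DR and 105.3 in WT MEF. It was 3.28-fold lower than DR with c-Jun (2.79 to 3.87), and none of the other factors passed 2-fold against DR. With Jdp2 its log2 change of -0.99 was just inside the limit. Against WT MEF, the c-Jun library was level with it at a ratio of 0.979 (0.838 to 1.14). The other libraries lay above WT MEF, with calls of 2.53-fold higher with Oct4 (2.28 to 2.8) and 2.86-fold higher with c-JunDN (2.61 to 3.13), and 1.61-fold with Jdp2, which was called with total counts only (log2 change 1.12). Decorin was thus on opposite sides of its 2 controls with Oct4, c-JunDN and Jdp2.

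Asporin, a class I member with an aspartate-rich stretch, had 15.6 CPM with c-Jun, 348.5 with c-JunDN, 472.2 with Jdp2 and 1.59 with Oct4, against 229.5 in MEF DR and 164.4 in WT MEF. It was 14.7-fold lower with c-Jun (10.1 to 22.3). With Oct4 it fell to 3 counts, against 446 in DR, a 144-fold ratio with a wide interval (48.9 to 701), the 3rd lowest log2 change of 11254 genes. In the MEF Oct4 library the gene was quantified on Ensembl genes, and in the others on RefSeq genes. Jdp2 gave 2.06-fold more than DR (1.83 to 2.31) and 2.87-fold more than WT MEF. Against WT MEF, asporin was also 2.12-fold higher with c-JunDN, 10.6-fold lower with c-Jun and 103-fold lower with Oct4 (35.2 to 500).

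Of the class II genes, fibromodulin spanned the widest range in MEF. It had 0.54 CPM with c-Jun, 124.0 with c-JunDN, 774.6 with Jdp2 and 5.3 with Oct4, against 57.1 in MEF DR and 109.1 in WT MEF. With Jdp2 it was 13.6-fold higher than DR (11.2 to 16.6) and 7.1-fold higher than WT MEF, and its log2 change of 3.74 was the 29th highest of 11027 genes. With c-Jun 1 count was left, against 111 in DR and 1677 in WT MEF. Its log2 change of -5.24 was the 8th lowest of 11085 genes, and the interval of the 106-fold ratio runs from 18.7 to 4240. Against WT MEF the c-Jun ratio was 203-fold lower (36.4 to 8030). Oct4 gave 10 counts, 10.7-fold less than DR (5.63 to 23) and 20.5-fold less than WT MEF (11.1 to 42.9). With c-JunDN it was 2.17-fold higher than DR (1.74 to 2.73) and 1.14-fold above WT MEF, so this call holds against DR only.

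PRELP, which anchors basement membranes to the connective tissue below, had 4.83 CPM with c-Jun, 45.9 with c-JunDN, 544.3 with Jdp2 and 9.0 with Oct4, against 75.6 in MEF DR and 79.9 in WT MEF. It was 7.2-fold higher than DR with Jdp2 (6.05 to 8.61), 15.6-fold lower with c-Jun (8.02 to 34.9) and 8.37-fold lower with Oct4 (5.05 to 14.8). The ratios to WT MEF were close to these, at 6.82-fold higher, 16.5-fold lower and 8.84-fold lower. With c-JunDN it was 1.65-fold lower than DR and 1.74-fold lower than WT MEF, within the limit.

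Lumican, which sets fibril diameter in cornea and skin, had 17.2 CPM with c-Jun, 160.4 with c-JunDN, 45.4 with Jdp2 and 84.5 with Oct4, against 170.3 in MEF DR and 47.3 in WT MEF. It was 9.91-fold lower than DR with c-Jun (6.88 to 14.7) and 3.75-fold lower with Jdp2 (2.95 to 4.82), the only one of the 8 genes called lower with Jdp2. Oct4 gave 2.02-fold less (1.66 to 2.45), a call lost with RLE factors and with total counts (log2 change -0.95). Against WT MEF, c-Jun was 2.75-fold lower, which total counts moved inside the limit (log2 change -0.97), and Jdp2 had a ratio of 0.959 (0.757 to 1.2), so the call with Jdp2 does not hold against that control. With Oct4 the direction turned, at 1.78-fold higher than WT MEF (1.49 to 2.12), within the limit but called with total counts (log2 change 1.28). With c-JunDN it was 3.39-fold higher than WT MEF (2.98 to 3.84).

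Omd, known from bone, was low in all MEF libraries, with 15.6 CPM with c-Jun, 8.2 with c-JunDN, 11.2 with Jdp2 and 0.53 with Oct4, against 7.7 in MEF DR and 2.41 in WT MEF. With c-Jun, its 29 counts against 15 gave a ratio of 2.02 (1.05 to 4.05) and a log2 change of 0.93, inside the limit. The 14.5-fold lower ratio with Oct4 rests on 1 count (2.23 to 611). Against WT MEF it was called higher with c-Jun at 6.47-fold (3.84 to 10.8), with c-JunDN at 3.42-fold (1.86 to 6.11) and with Jdp2 at 4.66-fold (2.59 to 8.18), and with Oct4 it was under 5 CPM in both libraries.

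Osteoglycin, the class III member, had 110.1 CPM with c-Jun, 564.3 with c-JunDN, 524.6 with Jdp2 and 78.1 with Oct4, against 251.6 in MEF DR and 107.4 in WT MEF. It was 2.24-fold higher than DR with c-JunDN (2.02 to 2.49) and 2.08-fold higher with Jdp2 (1.87 to 2.33). It was 2.29-fold lower with c-Jun (1.94 to 2.7) and 3.22-fold lower with Oct4 (2.67 to 3.9). The higher values hold against WT MEF too, at 5.25-fold with c-JunDN and 4.88-fold with Jdp2. The lower ones do not, at 1.02-fold higher with c-Jun and 1.38-fold lower with Oct4.

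Called in the same direction against both controls were 5 genes with c-Jun (Lum, Fmod, Bgn, Aspn and Prelp, lower), 4 with Oct4 (Fmod, Bgn, Aspn and Prelp, lower), 4 with Jdp2 (Fmod, Aspn, Ogn and Prelp, higher) and 1 with c-JunDN (Ogn, higher). The share of all genes called the same way against both controls was not counted. How unusual these counts are cannot be read from them. Against WT MEF alone, c-Jun had 1 of the 8 genes higher and 5 lower, where 24.9% of genes were called, 11.2% higher and 13.6% lower. Oct4 had 1 of 7 measured genes higher and 4 lower, where 29.4% were called, 14.6% higher and 14.8% lower. Jdp2 had 5 of 8 higher and 0 lower, where 26.6% were called, 12.0% higher and 14.6% lower. With c-JunDN 5 of 8 were higher and 0 lower, where 21.7% were called, 10.3% higher and 11.4% lower. The share of those calls that were higher was 45.2%, 49.6%, 45.1% and 47.5% for c-Jun, Oct4, Jdp2 and c-JunDN. With total counts it was 75.8%, 77.5%, 75.6% and 82.0%, and on the TPM scale 59.3%, 64.4%, 62.7% and 66.4%.

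Markers of cell types moved in the same libraries. The summed fibroblast markers were 9916.7 CPM with c-Jun, 18345.0 with c-JunDN, 17012.4 with Jdp2 and 8453.5 with Oct4, against 21431.9 in MEF DR and 36697.7 in WT MEF, with none of the 8 at 0. Against DR, 3 of the 8 were lower with c-Jun, 2 with c-JunDN, 2 with Jdp2 and 5 with Oct4, where 1 was higher. The shares of all measured genes that were lower were 9.66%, 2.82%, 6.40% and 10.2% in that order. Tnmd, a marker of tendon, had 2.69 CPM with c-Jun, 71.51 with c-JunDN, 69.44 with Jdp2 and 4.78 with Oct4, against 60.20 in MEF DR. The 3 tendon markers together had 22.0 CPM with c-Jun, 88.4 with c-JunDN, 88.1 with Jdp2 and 10.1 with Oct4, against 68.4 in MEF DR. Of the 2 measured with c-Jun, Tnmd was lower and Mkx was higher, at 17.18 CPM against 3.60 in MEF DR. Mkx was also called higher with c-JunDN (10.84 CPM) and with Jdp2 (9.62 CPM). The 10 macrophage markers had 319.9 CPM in MEF Oct4, where all 10 reached 5 CPM, and 195.5 with c-JunDN, where 8 did, against 91.1 in MEF DR, where 2 did. With c-Jun they had 113.3 CPM and with Jdp2 38.5. Of the 3 measured with c-Jun, Csf1r was higher and made up 78.41 CPM of that sum, against 4.63 in MEF DR. Lyz2 was lower, at 24.70 CPM against 64.83, and Cd68 was within 2-fold. The 10 cartilage and bone markers had 154.7 CPM with c-Jun, 292.6 with c-JunDN, 125.0 with Jdp2 and 129.1 with Oct4, against 111.7 in MEF DR. The 6 skeletal muscle markers had 15.6 CPM with c-Jun, 183.3 with c-JunDN, 3.2 with Jdp2 and 6.4 with Oct4, against 17.5 in MEF DR. Acta1 was the only one measured, and made up 182.47 CPM of that sum with c-JunDN against 15.44 in MEF DR. In WT MEF the tendon markers had 33.4 CPM and the macrophage markers 78.1. The cartilage and bone markers had 293.4 CPM in WT MEF and the muscle markers 131.6, so MEF DR was below WT MEF for both. The part of these cells in the proteoglycan levels was not tested.

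Sharing a side of DR was not limited to neighbours. Dcn and Lum shared it with all 4 factors, though Lum with c-JunDN had an interval that included 1 (0.81 to 1.1), and Fmod and Prelp with 3 of 4. Fmod, Bgn, Aspn and Ogn, which lie on 3 chromosomes, also shared a side with all 4 factors. With Jdp2, the chromosome 1 neighbours Fmod and Prelp had log2 changes of 3.74 and 2.83, and the chromosome 10 neighbours Dcn and Lum had -0.99 and -1.88. With Oct4, Fmod and Prelp had -3.20 and -2.93, while Dcn was 1.27-fold and Lum 2.02-fold lower. With c-JunDN, Fmod was 2.17-fold higher and Prelp 1.65-fold lower, where these neighbours lay on opposite sides of DR. On chromosome 13, Aspn had -6.47 and Ogn -1.67 with Oct4, and 0.60 and 1.16 with c-JunDN.

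**Figure D4:**
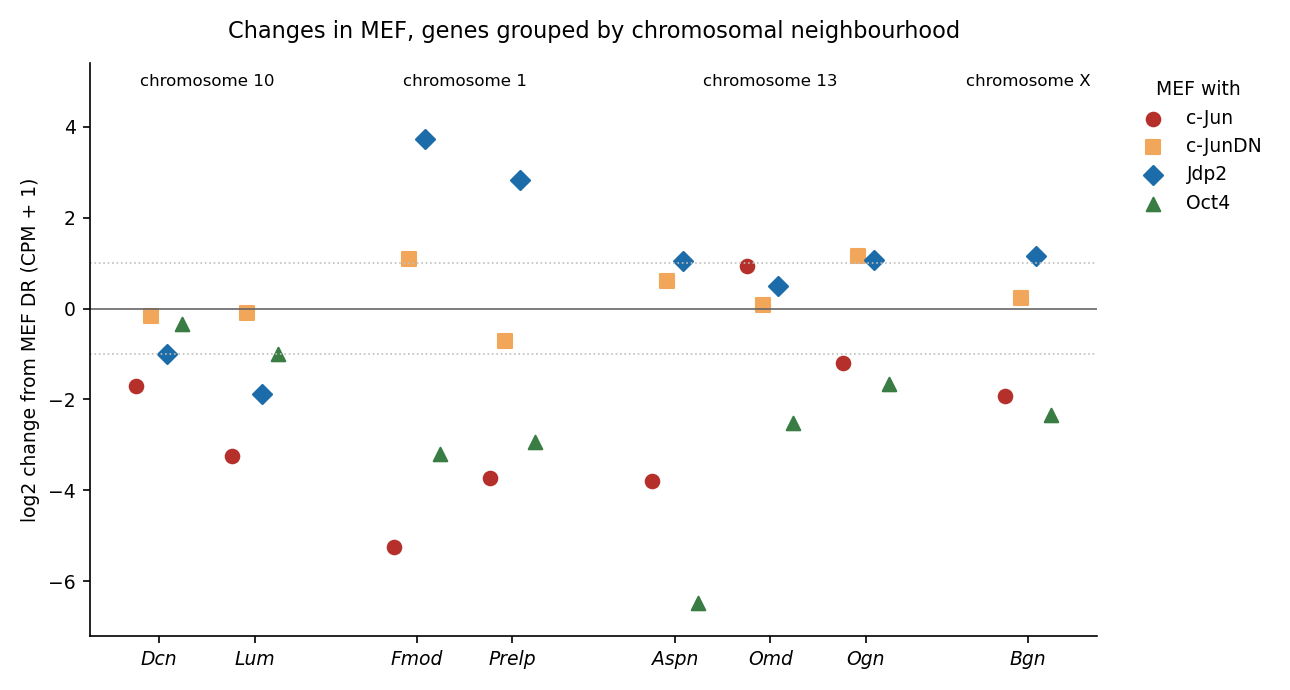
Log2 change of CPM plus 1 from MEF DR for each gene with 4 factors in MEF, genes grouped by chromosome, 1 library a group, dotted lines at 2-fold. With Jdp2 (diamonds), Fmod and Prelp on chromosome 1 lie at 3.74 and 2.83, and Dcn and Lum on chromosome 10 at -0.99 and -1.88.

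By day 3 of reprogramming, little was left of the expression of 7 of the 8 genes. In KSM DR, 7 of the 8 genes were lower than in MEF DR and Omd was higher, where 38.7% of 11270 genes were called, 18.8% higher and 19.9% lower. The median log2 change was -4.94, against 0.06 over all genes. Biglycan had 130.0 CPM in KSM DR against 5303.4 in MEF DR, 40.8-fold less (36.5 to 45.7). Asporin was down to 1 count against 446, and fibromodulin to 0 counts against 111, at least 47.6-fold lower when set against a floor of 3 counts in the KSM DR library. Osteoglycin was 62.9-fold lower (33.9 to 132), decorin 24.9-fold (17.6 to 36.2), lumican 22.4-fold (14.1 to 37.7) and PRELP 8.6-fold (5.47 to 14.1). Omd was 5.28-fold higher, with 40.8 CPM in KSM DR against 7.7 in MEF DR. All 10 collagen genes measured were lower too, and the summed fibroblast markers had 1043.0 CPM in KSM DR against 21431.9 in MEF DR. The labels give no culture time for MEF DR, so time and KSM cannot be told apart.

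Within the KSM libraries, c-JunDN and Jdp2 each left 2 genes higher than KSM DR, and Oct4 left 2 lower. In the Oct4 library, 5 genes were measured, where 11.6% of 10650 genes were called, 4.78% higher and 6.85% lower. With c-JunDN, 6 were measured, where 3.42% of 10615 genes were called, 1.70% higher and 1.72% lower. With Jdp2, 6 were measured, where 4.49% of 10699 genes were called, 3.17% higher and 1.32% lower. Aspn and Fmod were under 5 CPM in all of these libraries, and Ogn with Oct4 and DR. These 3 comparisons share the KSM DR library.

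Biglycan had 58.8 CPM in KSM Oct4, 249.1 in KSM c-JunDN and 267.5 in KSM Jdp2, against 130.0 in KSM DR. It was 2.21-fold lower with Oct4 (1.84 to 2.65), 2.06-fold higher with Jdp2 (1.8 to 2.35) and 1.92-fold higher with c-JunDN (1.68 to 2.19), which is inside the limit. Decorin had 13.58 CPM in KSM Oct4, 32.61 in KSM c-JunDN and 28.49 in KSM Jdp2, against 13.60 in KSM DR. Its ratios of 2.4 with c-JunDN (1.61 to 3.66) and 2.1 with Jdp2 (1.38 to 3.24) were calls, the last one lost (log2 change 1.00) when names outside the MEF Oct4 file were kept, while the Oct4 library was level with DR at 0.998 (0.625 to 1.61). Lumican had 10.86 CPM in KSM Oct4, 19.50 in KSM c-JunDN and 9.62 in KSM Jdp2, against 7.60 in KSM DR from 19 counts. Its 2.57-fold ratio with c-JunDN (1.51 to 4.56) was the 87th highest log2 change of 10615 genes, and that of decorin the 102nd.

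PRELP had 2.11 CPM in KSM Oct4, 13.11 in KSM c-JunDN and 6.66 in KSM Jdp2, against 8.80 in KSM DR. It was 4.17-fold lower with Oct4, from 7 against 22 counts (1.72 to 11.5). Omd had 38.3 CPM in KSM Oct4, 53.1 in KSM c-JunDN and 50.3 in KSM Jdp2, against 40.8 in KSM DR, all within 2-fold. Osteoglycin had 5 counts in KSM Oct4, 16 in KSM c-JunDN and 14 in KSM Jdp2, against 10 in KSM DR, and every interval of these ratios included 1. Asporin had 1 count in KSM Oct4, 1 in KSM c-JunDN and 5 in KSM Jdp2, against 1 in KSM DR, and fibromodulin 0, 1 and 4 in those libraries, against 0. For Aspn and Fmod these counts are too few to show a difference at this depth. For each factor, 7 of the 8 genes had lower CPM in the KSM library than in the MEF library, with biglycan at 267.5 CPM in KSM Jdp2 against 11765.6 CPM in MEF Jdp2. The summed fibroblast markers were 1078.5 CPM in KSM Oct4, 1245.2 in KSM c-JunDN and 1358.0 in KSM Jdp2, against 1043.0 in KSM DR. In KSM Oct4, 4 of the 8 were lower than in KSM DR, 0 higher and 4 within 2-fold, with a median log2 change of -1.05. Of all genes measured there, 6.85% were lower. Col1a1 had 182.82 CPM in KSM Oct4 against 425.90 in KSM DR, and Thy1 7.54 against 25.99. Both are among the 4 lower markers, while the sum of all 8 was slightly above that of KSM DR. With c-JunDN 0 of these markers were called, and with Jdp2 1 was lower. The 10 cartilage and bone markers had 23.8 CPM in KSM Oct4, 182.5 in KSM c-JunDN and 202.0 in KSM Jdp2, against 74.4 in KSM DR. Among them Col2a1, the main collagen of cartilage, had 3.62 CPM in KSM Oct4, 137.16 in KSM c-JunDN and 165.77 in KSM Jdp2, against 43.59 in KSM DR. The 6 epithelial markers had 122.8, 311.0 and 658.7 CPM in those libraries, against 785.8 in KSM DR. The part of these cells in the result was not tested.

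**Figure D5:**
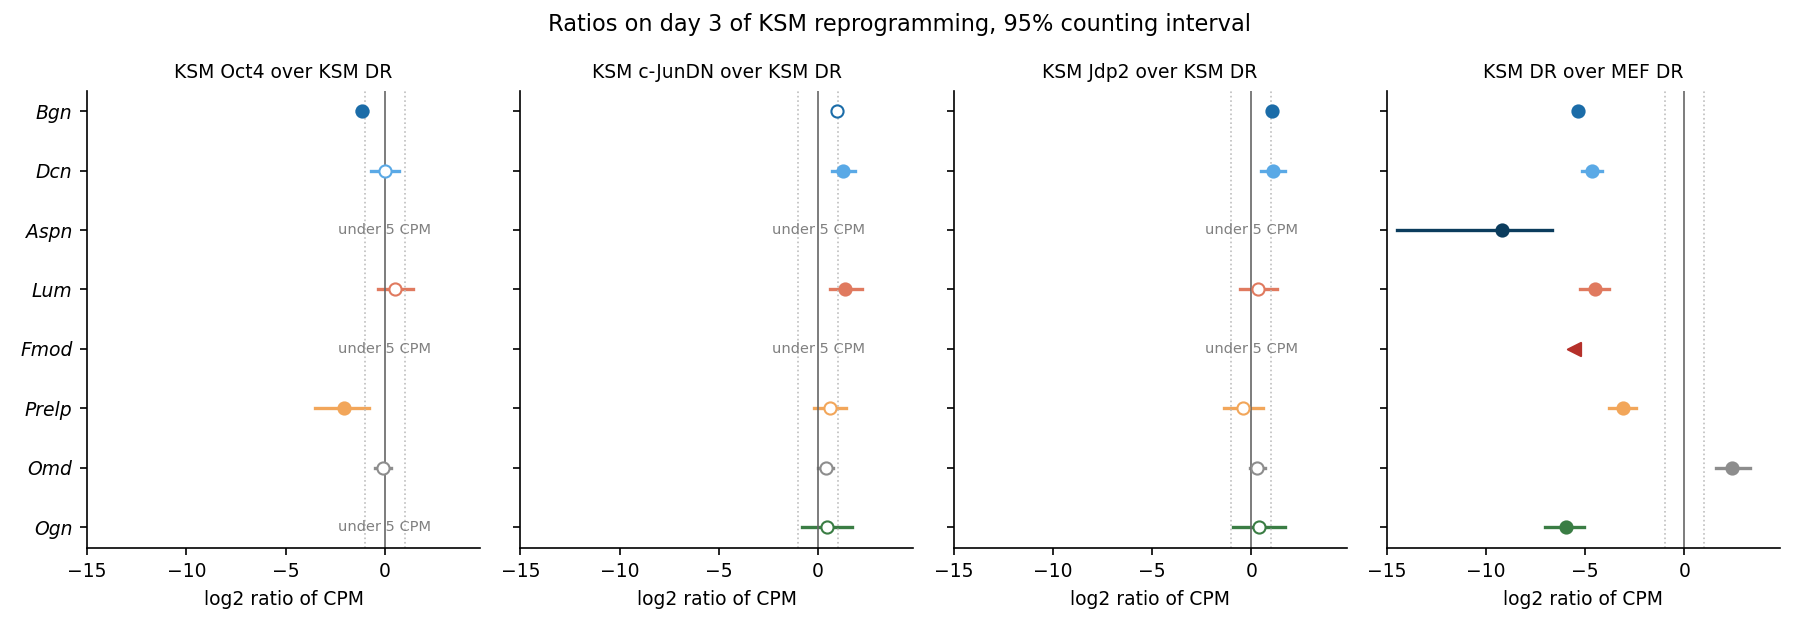
Ratio of CPM on a log2 axis for each gene in 3 KSM libraries against KSM DR and in KSM DR against MEF DR, 1 library a group, with lines for the 95% counting interval and filled points for genes called. Genes under 5 CPM in both libraries carry no point, and the triangle of Fmod marks a bound of at least 47.6-fold against a floor of 3 counts.

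In ESC, c-Jun induction left most of the 8 genes near 0. With doxycycline 2 genes were measured against the uninduced line, where 40.9% of 11072 genes were called, 21.5% higher and 19.3% lower. Higher calls were 52.7% of all, and 65.9% on the TPM scale. Omd had 21.5 CPM with doxycycline against 81.3 without, 3.78-fold lower (2.79 to 5.17). Biglycan had 18 counts with doxycycline against 6 without, a ratio of 2.22 with an interval from 0.845 to 6.84. Its log2 change of 0.94 was not called, but passed the limit with total counts (1.07), on the TPM scale (1.14) and with a pseudocount of 0.25 (1.09). The other 6 genes had 0 or 1 count with doxycycline and 0 to 2 counts without it, too few for any fold. Collagen genes were called higher in the same comparison. Col1a1 had 507.19 CPM with doxycycline against 6.90 without, and Col5a1 had 414.81 against 21.20. Of 7 collagen genes measured, 6 were higher and 0 lower. Bmp1, whose product trims procollagens and the biglycan propeptide, had 404.22 CPM with doxycycline against 1.97 without. The 8 ESC markers had 1331.7 CPM with doxycycline against 7106.5 without, and the 6 epithelial markers 5709.4 against 661.0, and their part in the result was not tested.

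The TetOn line held fewer of these transcripts than WT ESC in either state. Biglycan had 6.6 CPM with doxycycline and 3.0 without it, against 67.6 in WT ESC. Decorin had 1 count in each state of the line, against 126 in WT ESC, and asporin 0 counts in each, against 92. With doxycycline 4 genes were lower than in WT ESC and 0 higher, where 37.9% of 11300 genes were called, 14.7% higher and 23.2% lower. Without doxycycline 4 were lower and 1, Omd, was higher, where 24.7% of 10871 genes were called, 6.24% higher and 18.5% lower. The share of calls that were higher was 38.7% with doxycycline and 25.3% without, and with RLE factors 48.8% and 36.6%. With total counts it was 51.2% with doxycycline, and the counts of these genes were the same under each. The summed fibroblast markers were also below WT ESC, with 547.7 CPM with doxycycline and 18.7 without it, against 915.4 in WT ESC, where 5 of the 8 reached 5 CPM and 1 was at 0. Col1a1 alone made up 507.19 CPM of that sum with doxycycline and 478.79 CPM in WT ESC. Between the states of the line the sums differed in direction. The marker sum was higher with doxycycline, while the 8 proteoglycan genes summed to 29.2 CPM with it and 87.2 without. Omd alone made up 21.54 CPM of the proteoglycan sum with doxycycline and 81.33 without, so its direction rests on that uncertain gene. Bgn had 6.57 CPM with doxycycline and 2.96 without. Whether WT ESC held some fibroblasts was not tested.

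Genes that act with the proteoglycans were counted next, from lists of pathway genes. Of the rest of the family (Ecm2, Kera, Epyc, Optc, Chad, Nyx, Tsku, Podn and Podnl1), 3 or 4 of 9 were measured in MEF comparisons with DR. Podn, which encodes podocan, had 12.35 CPM with c-Jun, 62.41 with c-JunDN, 61.97 with Jdp2 and 9.56 with Oct4, against 190.90 in MEF DR and 49.42 in WT MEF. It was called lower than DR with all of these factors, yet MEF DR itself stood above WT MEF with a log2 difference of 1.93. With Jdp2, 3 of 3 measured family members were lower, including Tsku with 27.24 CPM against 65.35 in MEF DR, while 5 of the 8 main members were higher. Of all genes measured with Jdp2, 5.98% were higher and 6.40% lower. Podnl1 was called higher with c-Jun at 13.96 CPM against 5.15 in MEF DR, and with Jdp2 it had 1 count against 10.

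Fibrillar and fibril-associated collagens, the partners of these proteoglycans, were lower for 5 of 10 measured genes and higher for 1 with c-Jun, and lower for 7 and higher for 0 with Oct4. Their median log2 changes were -1.10 and -1.50, against 0.02 and 0.01 over all genes, and 10 of the 11 listed were found. With Jdp2, 3 were lower and 1 higher, and with c-JunDN 1 was lower and 0 higher. Of all measured genes, 9.66% were lower with c-Jun, 10.2% with Oct4, 6.40% with Jdp2 and 2.82% with c-JunDN. The shares higher were 8.33%, 11.6%, 5.98% and 3.28% in that order. Col12a1, a collagen on the fibril surface, had 617.58 CPM with c-Jun, 6533.83 with c-JunDN, 11411.41 with Jdp2 and 1089.30 with Oct4, against 4109.68 in MEF DR. It was the one collagen of the list called higher than DR with Jdp2, with a log2 change of 1.47. WT MEF had 8737.97 CPM of Col12a1. Against WT MEF, 0 of the 10 collagens were higher with Jdp2 and 6 were lower, where 12.0% of all genes were higher and 14.6% lower. Col5a3 was called higher with c-Jun, at 510.71 CPM against 51.45 in MEF DR. Within the KSM libraries, Col1a2 had 858.10 CPM with Jdp2 against 350.32 in KSM DR. In that comparison 2 of 9 collagens were higher, where 3.17% of all genes were.

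Enzymes that build the sulfated chains are set against the shares of all genes called, 18.0% with c-Jun, 6.10% with c-JunDN, 12.4% with Jdp2 and 21.8% with Oct4. Of 22 genes for chondroitin and dermatan sulfate, 19 or 20 were measured in each MEF comparison with DR. With c-Jun 2 of 19 were higher and 1 lower, with c-JunDN 1 and 1 of 20, with Jdp2 1 and 2 of 20, and with Oct4 3 and 0 of 20. Chst11, a chondroitin sulfotransferase, had 256.16 CPM with c-Jun against 40.13 in MEF DR. WT MEF had 141.18 CPM of Chst11, and MEF DR itself stood below WT MEF with a log2 difference of -1.79. Csgalnact1, which starts the chondroitin chain, had 5.88 CPM with Jdp2 and 20.80 with c-JunDN, against 80.27 in MEF DR. Of the 5 keratan sulfate genes, 3 were measured. Chst1, a keratan sulfotransferase, was lower with c-Jun (3.76 CPM), c-JunDN (4.33) and Jdp2 (5.88), and higher with Oct4 (36.66), against 15.44 CPM in MEF DR. WT MEF had 8.84 CPM of Chst1. In ESC, 9 of 16 chondroitin and dermatan genes were higher and 0 lower with doxycycline than without. Of all genes measured there, 21.5% were higher and 19.3% lower. Chst11 was among the higher ones, at 73.39 against 5.42 CPM.

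Proteases that can cut the core proteins differed in both directions. With c-Jun 3 of 10 were higher and 5 lower, where 8.33% of all measured genes were higher and 9.66% lower. With Jdp2 2 of 10 were higher and 3 lower, where 5.98% of all were higher and 6.40% lower. Adamts1, a metalloprotease that cleaves proteoglycans, had 37.59 CPM with c-Jun, 375.78 with c-JunDN, 2511.24 with Jdp2 and 1268.90 with Oct4, against 344.23 in MEF DR. Mmp3, a stromelysin, had 95.59 CPM with c-Jun and 3.90 with c-JunDN, against 18.01 in MEF DR, and 0 counts with Jdp2. WT MEF had 7.61 CPM of Mmp3. Mmp13, a collagenase, had 2 counts with Jdp2 against 47 in MEF DR. Of the 10 proteases measured with Oct4, 2 were higher than DR and 5 lower, where 11.6% of all genes were higher and 10.2% lower. Tll1, a relative of Bmp1, had 277.37 CPM with Oct4 against 46.82 in MEF DR. WT MEF had 268.05 CPM of Tll1, so the Oct4 library was close to that control.

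Among TGF-beta ligands and receptors, Tgfbr3, a co-receptor that presents TGF-beta 2, had 85.92 CPM with c-Jun, 51.14 with c-JunDN, 28.31 with Jdp2 and 13.28 with Oct4, against 271.68 in MEF DR and 110.68 in WT MEF. It was called lower than DR in each. Of 6 genes, 2 were lower with each factor and 1, Tgfb1 with Oct4 at 107.87 CPM against 30.36 in MEF DR, was higher. Of all measured genes, 9.66% were lower with c-Jun, 2.82% with c-JunDN, 6.40% with Jdp2 and 10.2% with Oct4. With Oct4, 11.6% of all genes were higher. Against WT MEF, 0 of the 6 were higher with Oct4 and 4 were lower, where 14.6% of all genes were higher and 14.8% lower. Of other proteoglycans, Vcan, which encodes versican, had 233.44 CPM with Jdp2 and 300.75 with Oct4, against 1503.50 in MEF DR. Agrn was higher than DR with Jdp2, at 802.89 CPM against 372.02, and lower with Oct4 at 176.94. WT MEF had 137.86 CPM of Agrn, so with Oct4 it was lower than DR only. Of 7 receptors of the proteoglycans, 6 were measured with c-Jun, of which Met was higher (145.00 against 34.47 CPM in MEF DR) and 3 were lower, Egfr among them (60.68 against 184.72). Of all genes measured with c-Jun, 8.33% were higher and 9.66% lower.

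Genes with the most similar pattern were found over the 10 MEF and KSM libraries, by the root mean square difference of log2(CPM + 1) after centring each of 11306 genes on its own mean. All genes share the same 10 libraries and their gap between MEF and KSM, so the values are a description only. Dcn was nearest to Tnfsf12 at 0.27, then Gpx7 and Mmp23. Lum was nearest to Il31ra at 0.51 and Bmper at 0.54, with Dcn 3rd at 0.62. Bgn was nearest to Dkk3 at 0.43, then Ltbp2 and Pdgfrb, and Ogn was nearest to Dkk3 too, at 0.62, then Cd248 and Sdpr. Fmod and Aspn both had Mylk nearest, at 0.76 and 0.73. Next for Fmod came Wisp2 and Mgp, and for Aspn Clca1 and Mfap4. Prelp was nearest to Hmcn1 at 0.52, then Plekha4 and Foxs1, and Omd to Tmem69 at 0.44, then Papln and Cmah. Among the 8 themselves, Fmod ranked 7th among the genes nearest to Aspn, at 1.29, and Ogn 15th nearest to Bgn, at 0.79. Prelp ranked 21st nearest to its neighbour Fmod, at 1.53.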

How the data were processed

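Expected counts per gene, deposited by the authors, came from RSEM 1.1.21 with build mm9, per the submitters' processing notes. They were rounded here. In 12 libraries the authors deposited, beside them, a fraction of transcripts per RefSeq gene that sums to 1, which was scaled here to TPM. The MEF Oct4 library was deposited with expected counts, TPM and FPKM over Ensembl genes, per the file headers, and the FPKM values were not used. It was joined by symbol (17964 names), RefSeq accession (1798) or synonym (25), and the 19787 shared names hold 97.134% of its counts and at least 90.45% of those of each other library. No 2 libraries were identical.

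Counts were scaled by TMM (edgeR 4.0.16, R 4.3.3), which served for scaling only. Each change is the log2 of a ratio, first group over second, after adding a pseudocount of 1 to both CPM values. Genes at 5 CPM or more in either library were measured, and 2-fold was a call. A fold is the ratio of CPM with an exact conditional binomial 95% interval, and both intervals and the floor of 3 counts cover counting error only. No test across replicates was possible with 1 library a group. The scripts were tested on simulated counts.

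All 8 genes are named in each comparison. Of every other list, up to 3 genes with the largest change in a comparison are named, with values of these genes in other libraries. The genes and lists were chosen with earlier results of these data known. Motifs were searched in RefSeq promoter windows (GRCm38.p6). The 3 chromatin immunoprecipitation samples were not analysed here, since no annotation of mm9 was used here. Alternatives were RLE factors, total counts, the TPM scale, a pseudocount of 0.25, no filter or 10 CPM, a 3-fold call, matching by symbol alone, and, added after the data were seen, all 20325 names of the 12 RefSeq-based libraries.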

Additional observations from a re-analysis of the deposited data

Results flagged for a closer look

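In 3 cases a gene lay on opposite sides of its control under the same factor in different cells, with a counting interval that left out 1 on both sides. Each group was 1 library, and the difference was not tested. Omd had a log2 change of 0.93 with c-Jun over DR in MEF and of -1.87 with c-Jun induced over uninduced in ESC, and its counts are uncertain because its expected counts were fractional. Dcn had -0.17 with c-JunDN over DR in MEF, where the interval of the ratio ran from 0.8 to 0.993, and 1.20 in KSM. With Jdp2 over DR, Dcn had -0.99 in MEF and 1.01 in KSM, where it had 77 counts with Jdp2 and 34 in KSM DR. Both cases hold against MEF DR only. Over WT MEF, Dcn had 1.51 with c-JunDN and 0.68 with Jdp2, the same side as in KSM. Of genes measured in both, another 6 pairs had opposite signs with an interval that included 1 in at least 1 of the pair, namely Bgn with c-Jun (-1.92 in MEF and 0.94 in ESC), Lum with c-JunDN, Jdp2 and Oct4, and Prelp with c-JunDN and Jdp2.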

How the results depend on the processing

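Of 9 alternatives, matching by symbol alone touched only the 2 comparisons with MEF Oct4 and keeping all names only the other 15, so each comparison had 8. Of the resulting 1088 values of single genes, 0 changed direction after passing the limit, and of 136 counts of genes called, 121 stayed within 1.5 times. For ESC with over without doxycycline the count of 1 became 2 with total counts, on the TPM scale and with a pseudocount of 0.25. A 3-fold call gave 0 in place of 2 for c-JunDN over DR in MEF, 3 in place of 6 for Jdp2 over DR in MEF, 1 in place of 2 for Oct4 in KSM, 0 in place of 2 for c-JunDN and for Jdp2 in KSM, 2 in place of 4 for DR over WT MEF and 2 in place of 5 for c-JunDN over WT MEF. A filter of 10 CPM gave 1 in place of 2 for Oct4 in KSM, 2 in place of 4 for induced ESC over WT ESC and 3 in place of 5 for uninduced ESC over WT ESC. For Jdp2 in KSM, no filter gave 4 in place of 2 and all 20325 names gave 1. The cause was not tested beyond what each setting does by construction. Total counts shifted the median of all genes by 0.40 to 0.45 in the 5 comparisons with WT MEF, and the TPM scale by 0.16 to 0.20. Other shifts over 0.1 were 0.16 (total counts) and 0.25 (TPM scale) for induced over uninduced ESC, 0.17 to 0.22 for induced over WT ESC, 0.16 (RLE) for uninduced over WT ESC, 0.13 (RLE) and -0.29 (total counts) for WT MEF over WT ESC, and 0.12 (total counts) for KSM DR over MEF DR. No paired analysis was possible because each group holds 1 library, and for the same reason no replicate could be left out. Depth limits Aspn, Fmod and Ogn in KSM and 6 of the 8 genes in the TetOn ESC line, where a count of 0 allows up to 3 counts.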
